A study of Mus musculus with 12 samples.

Results

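The integrated stress response and unfolded protein response genes described here are a list of 37 genes given by symbol, from the kinases that sense stress to the chaperones that fold proteins in the endoplasmic reticulum (ER). Of these, 36 have a row in both deposited count tables, out of 16699 genes listed in both, and all 36 passed the filter on low counts in every comparison. Phgdh, which encodes the first enzyme of serine synthesis, was not analysed here.

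The cells were J774A.1, a mouse macrophage line. RNA-seq covered 3 libraries from each of 4 groups, which were unstimulated WT, unstimulated ACAT1 KO, LPS WT and LPS ACAT1 KO. WT cells had received a Cas9 vector without a guide, and ACAT1 KO cells the same vector with a guide to exon 4 of Acat1, which encodes a mitochondrial acetyl-CoA acetyltransferase. GFP-positive cells of both were grown as clonal lines from wells seeded with about 5 cells, and the study describes 3 different lines per genotype, so a genotype here is 3 lines and not a population. LPS, a bacterial ligand of TLR4, was given at 100 ng/ml for 2 hours, and the unstimulated cells received no treatment. The comparisons ask how these genes respond to the loss of ACAT1, to LPS, and to both together.

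The integrated stress response starts with 4 kinases, each sensing a different stress, that phosphorylate the translation factor eIF2α. General translation then slows, while mRNAs with upstream reading frames, such as that of the transcription factor ATF4, are translated more. ATF4 and its partners raise genes of amino acid supply and of stress signalling, and phosphatase subunits reverse the phosphorylation. The unfolded protein response is run by sensors in the ER membrane, PERK (which is also one of the eIF2α kinases), IRE1α and ATF6, and raises chaperones and the machinery that removes misfolded proteins (ERAD). In macrophages LPS is known to engage parts of both. mRNA levels show neither the phosphorylation of eIF2α nor the splicing of Xbp1, which were not analysed here.

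Libraries held 56948593 to 127263834 counts in unstimulated cells and 96704955 to 167280149 after LPS. Levels are given as CPM, counts relative to library size, after TMM normalization over the 12 libraries. Fold changes are log2 values with their standard errors (SE). In these bulk libraries fewer cells with a transcript and less of it per cell cannot be told apart. A gene is called where its p from edgeR's quasi-likelihood test, adjusted over all genes tested by the Benjamini-Hochberg method, is under 0.05. Acat1 was at 108, 107 and 80.8 CPM in unstimulated WT and 28.9, 25.5 and 26.1 CPM in unstimulated ACAT1 KO libraries, and at 85.4, 95.4 and 65 CPM and 19.9, 18.5 and 18.9 CPM after LPS, so every library was on the side its label gives. All 8 macrophage markers examined were measured in every group, and the markers of other cell types listed in both tables, Cd79a and Pecam1, had group means of at most 0.58 CPM. Replicates spread more before LPS (biological coefficient of variation 0.285) than after it (0.108). In ACAT1 KO cells the genes of chromosome 12 were lower as a group (median log2 difference -0.26 unstimulated and -0.28 after LPS) and those of chromosome 2 from 90 Mb were higher (0.29 and 0.28), so a difference of a member there in the direction of its segment cannot be told apart from a change of the segment. Pdia6 and Dnajb9 lie on chromosome 12, and Eif2ak4, Trib3 and Chac1 on that part of chromosome 2.

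The promoters of the members carry known elements of these responses, and are shown here because the groups of members that hold them are compared below. Windows of 300 bases, 250 before and 50 after each gene start, came from RefSeq on GRCm38.p6, and 36 windows matched 32 of the 36 members (Atf6, Hyou1, Manf and Ppp1r15b matched none). The ER stress response element (ERSE), CCAAT and CCACG with any 9 bases between them on either strand, was in 39 of all 32851 windows (0.119%) and in those of 6 members, all of them ER chaperones or folding factors. Its 7 matches are given below in capitals, each 5′ to 3′ on the strand where the motif reads forward.

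Hspa5 (chr2:34772020-34772048, plus strand): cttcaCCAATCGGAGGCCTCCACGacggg
Calr (chr8:84847055-84847113, plus strand): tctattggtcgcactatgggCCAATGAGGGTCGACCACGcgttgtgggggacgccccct
Hsp90b1, distal match (chr10:86705618-86705676, minus strand): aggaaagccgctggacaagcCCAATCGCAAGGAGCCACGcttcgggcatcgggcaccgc
Hsp90b1, proximal match (chr10:86705513-86705571, plus strand): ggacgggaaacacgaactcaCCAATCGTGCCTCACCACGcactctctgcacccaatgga
Pdia6 (chr12:17266471-17266529, plus strand): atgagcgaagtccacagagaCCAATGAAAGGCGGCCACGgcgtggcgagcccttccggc
Dnajc3 (chr14:118937807-118937865, plus strand): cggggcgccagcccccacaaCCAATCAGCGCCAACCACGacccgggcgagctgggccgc
Creld2 (chr15:88819500-88819558, minus strand): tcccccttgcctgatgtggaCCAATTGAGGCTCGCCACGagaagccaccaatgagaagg

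The matches began between 65 and 212 bases before the RefSeq start that set the window. With its flanks the stretch of Hspa5 overlapped an annotated exon and is printed shorter. The C/EBP-ATF response element (CARE), at which ATF4 acts with C/EBP partners, was searched as TGATG, any base and AA on either strand. This shorter motif was in 1304 windows (3.97%) and in those of 5 members, namely Chac1, Asns, Nupr1, Herpud1 and Trib3. The match of Trib3 began 14 bases after its start and is not printed. The other 4 are below, with the 8 bases of the motif in capitals. With their flanks the stretches of Asns and Nupr1 overlapped an annotated exon and are printed shorter.

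Chac1 (chr2:119351029-119351076, minus strand): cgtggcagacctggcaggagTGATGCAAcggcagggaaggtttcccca
Asns (chr6:7693214-7693243, minus strand): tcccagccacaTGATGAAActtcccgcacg
Nupr1 (chr7:126625562-126625591, plus strand): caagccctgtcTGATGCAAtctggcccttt
Herpud1 (chr8:94386297-94386344, minus strand): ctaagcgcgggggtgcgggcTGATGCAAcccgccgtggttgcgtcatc

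Herpud1 held in addition the only ERSE-II among the members, ATTGG and CCACG with 1 base between them, a motif of 12 windows in all (0.0365%).

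Herpud1 (chr8:94386357-94386407, plus strand): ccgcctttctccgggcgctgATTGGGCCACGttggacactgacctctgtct

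No member window held the unfolded protein response element searched as TGACG directly followed by TGG, which was in 222 windows (0.676%). A match is a run of letters and not a measured binding site, and other forms of these elements were not searched.

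Over the 12 libraries the members did not move as a block. The 5 stress effectors, which are the products through which the response limits growth or signals outward, had the widest range of role medians over the libraries, and the ER chaperones the narrowest. The median of the stress effectors, relative to each gene's own mean, was between 0.55 and 1.26 on the log2 scale in the 6 unstimulated libraries. In the LPS libraries it was 0.24 in WT replicate 1 and from -1.55 to -0.89 in the other 5. For the 11 ER chaperones and folding factors the same median stayed between -0.18 and 0.10 in all 12 libraries. LPS WT replicate 1 thus stood apart from the other LPS libraries for the stress effectors.

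**Figure D1:**
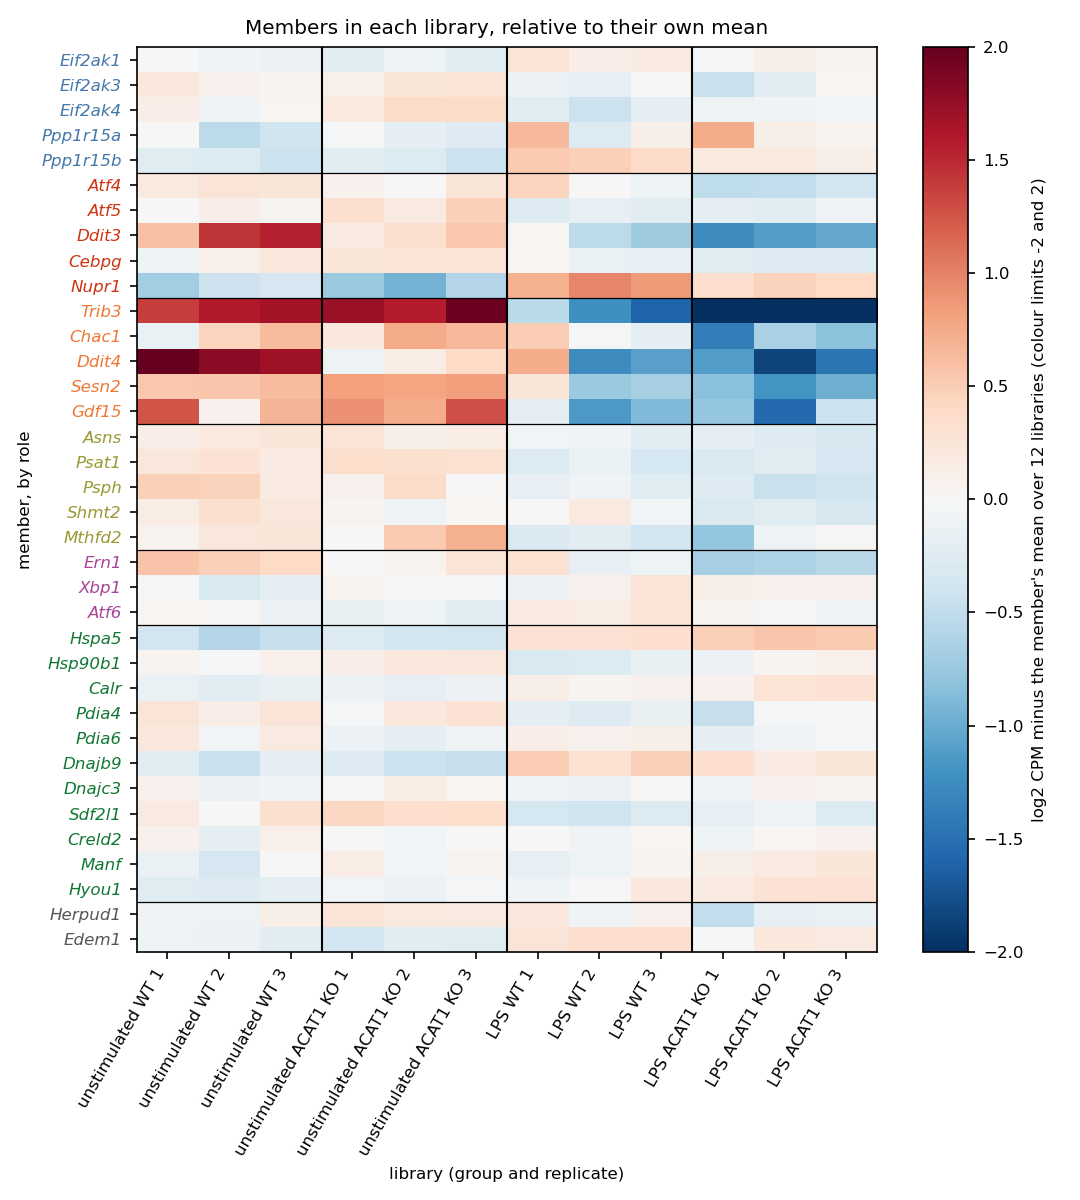
Colours show log2 CPM of the 36 members (rows) in the 12 libraries (columns) minus each member's mean over the libraries, and values beyond -2 or 2 are drawn at that limit. Horizontal lines part, from the top, eIF2α kinases and phosphatase subunits, transcription factors, stress effectors, amino acid and one-carbon enzymes, UPR sensors with Xbp1, ER chaperones, and ERAD genes, and the stress effectors are mostly red in the unstimulated and mostly blue in the LPS libraries.

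In unstimulated cells 1 member of 36 was called between genotypes, Ddit4, which was lower in ACAT1 KO cells. Among all 16440 genes tested 1.91% were called and 1.17% were lower, so the share of members (2.78%) was near that of genes in general. Ddit4 encodes REDD1, an inhibitor of mTORC1 that stress raises, and lies at chr10:59949669-59951834 on the minus strand. It was at 76.9, 63.8 and 58.8 CPM in WT and at 17, 20.1 and 24 CPM in ACAT1 KO libraries. Every ACAT1 KO library was below every WT library, with a log2 fold change of -1.70 (SE 0.152, adjusted p = 0.0124), about a 3.24-fold lower level. Noncoding genes antisense to other genes took more of the counts in 3 unstimulated libraries, replicates 1 and 2 of WT and replicate 2 of ACAT1 KO (0.045% to 0.0685% of counts, against at most 0.0158% in the others). Ddit4 differed by -1.78 within those libraries and by -1.54 within the others. Without WT replicate 2 its fold change was -1.73 with an adjusted p of 0.0643, and no member was then called.

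No other member passed in unstimulated cells. By unadjusted p under 0.05, 5 members were higher and 5 lower, where 9.73% and 9.93% of all genes were. Those with the smallest p after Ddit4 were Sesn2, a stress-induced inhibitor of mTORC1, Ern1, which encodes the sensor IRE1α, and Ddit3, which encodes the transcription factor CHOP. Sesn2 was at 65.3, 65.9 and 69.9 CPM in WT and 79.6, 77.7 and 80 CPM in ACAT1 KO libraries, a log2 difference of 0.25 (SE 0.0544, adjusted p = 0.0751). Ern1 was at 45.2, 42.2 and 40.2 CPM in WT and 30.6, 31.9 and 36.7 CPM in ACAT1 KO libraries, a difference of -0.35 (SE 0.0867, adjusted p = 0.0936). Ddit3 ranged more widely in WT, at 17.6, 31.5 and 34 CPM, than in ACAT1 KO libraries, at 13.2, 14.6 and 17 CPM, and its difference was -0.88 (SE 0.242, adjusted p = 0.117). The groups of these 3 genes did not overlap, which was the case for 16 of 36 members (11 higher and 5 lower in ACAT1 KO) and for 25.8% of all genes. The median log2 difference of the members was 0.10, against 0.00353 for all genes, and with 1 library left out it was 0.039 (without WT replicate 2) to 0.081. Atf4 itself was at 532 ± 12.4 CPM in WT and 488 ± 45.1 CPM in ACAT1 KO cells (SD, n = 3), with overlapping libraries. DESeq2 called 5 members higher and 4 lower in the same libraries, where it called 1721 genes in all against 314 by edgeR.

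After LPS 10 of 36 members were called between genotypes, 8 lower and 2 higher in ACAT1 KO cells. Of all 16483 genes tested 15.1% were called, 9.12% lower and 5.93% higher. The lower members were 3 transcription factors (Atf4, Ddit3 and Nupr1), 2 stress effectors (Trib3 and Chac1), the phosphatase subunit Ppp1r15b, the sensor Ern1 and the enzyme Shmt2. The higher members were the ER folding factors Hspa5 and Manf. The median log2 difference of the members was -0.13, against -0.00409 for all genes, and -0.087 without WT replicate 1. With all libraries it was -1.01 over the 5 stress effectors, -0.42 over the 5 transcription factors and 0.16 over the 11 ER chaperones and folding factors. The groups did not overlap for 14 members that were lower and 5 that were higher, and for 19.7% and 17.9% of all genes.

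Among the transcription factors, Atf4, at chr15:80255184-80257541 on the plus strand, was at 618, 457 and 422 CPM in LPS WT and 319, 322 and 345 CPM in LPS ACAT1 KO libraries. The ACAT1 KO libraries were close to each other and all below WT, of which replicate 1 was the highest, and the log2 fold change was -0.58 (SE 0.132, adjusted p = 0.0254). Ddit3, at chr10:127290774-127296288 on the plus strand, was at 12, 8.15 and 7.15 CPM and 4.95, 5.41 and 5.77 CPM, a fold change of -0.73 (SE 0.185, adjusted p = 0.0344). Nupr1, which encodes a small stress-induced transcriptional regulator, was at 117, 141 and 129 CPM and 90.1, 99 and 95 CPM. Here WT replicate 1 was the lowest of its group, no library crossed over, and the fold change was -0.42 (SE 0.0758, adjusted p = 0.0117). Neither Cebpg, a partner of ATF4, at -0.15 (adjusted p = 0.158), nor Atf5, a factor related to ATF4, at 0.07 (adjusted p = 0.487), passed.

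Of the stress effectors, Trib3 and Chac1 were called. Trib3, a pseudokinase that ATF4 and CHOP induce, lies at chr2:152337422-152344032 on the minus strand and was at 35.2, 21.7 and 16.8 CPM in LPS WT and 11.5, 10.3 and 12.3 CPM in LPS ACAT1 KO libraries, a log2 fold change of -1.09 (SE 0.239, adjusted p = 0.0232). Chac1, which degrades glutathione, lies at chr2:119351229-119354381 on the plus strand and was at 17.2, 11.8 and 10.7 CPM and 4.66, 7.76 and 6.88 CPM, a fold change of -1.01 (SE 0.225, adjusted p = 0.0239). Both were lower in ACAT1 KO cells although the genes of their part of chromosome 2 were higher as a group. For Ddit4, at 30.3, 7.6 and 8.54 CPM in WT and 8.38, 5.03 and 6.61 CPM in ACAT1 KO libraries, the groups overlapped, and the difference was -1.19 (adjusted p = 0.151), or -0.26 without WT replicate 1. Sesn2 was at 53.2, 26.7 and 28.2 CPM in WT and 25.1, 19.7 and 22.9 CPM in ACAT1 KO libraries, without overlap but with WT replicate 1 far above the rest, and its difference went from -0.65 (adjusted p = 0.115) to -0.27 without that library. Gdf15, a secreted stress cytokine, was at 8.62, 4.39 and 5.28 CPM and 5.7, 3.33 and 7.3 CPM, with overlapping groups.

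Of the kinases and phosphatase subunits only Ppp1r15b, the constitutive regulatory subunit of the eIF2α phosphatase, was called. It was at 298, 289 and 269 CPM in LPS WT and 236, 237 and 223 CPM in LPS ACAT1 KO libraries, a fold change of -0.28 (SE 0.0567, adjusted p = 0.0182). The stress-induced subunit Ppp1r15a was high in replicate 1 of both genotypes, at 151, 78.9 and 104 CPM and 160.1, 104 and 100.2 CPM, and the groups overlapped. The kinase genes Eif2ak1 (HRI), Eif2ak3 (PERK) and Eif2ak4 (GCN2) differed by -0.12 ± 0.0667, -0.07 ± 0.117 and 0.22 ± 0.0755 (log2 ± standard error), none called, and the last is close to the median of its segment.

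Of the amino acid and one-carbon enzymes only Shmt2, the mitochondrial serine hydroxymethyltransferase, was called, at 504, 575 and 484 CPM in LPS WT and 412, 425 and 404 CPM in LPS ACAT1 KO libraries, a fold change of -0.31 (SE 0.0714, adjusted p = 0.0259). The unstimulated difference of Shmt2 had the same sign, at -0.23 (adjusted p = 0.163). Asns, Psat1, Psph and Mthfd2 differed by -0.12, -0.02, -0.18 and 0.08, none called. Of the UPR sensors, Ern1 was at 37.4, 27 and 28.7 CPM and 19.2, 19.6 and 20.7 CPM, a fold change of -0.62 (SE 0.119, adjusted p = 0.0147), and its unstimulated difference had the same sign. Atf6 differed by -0.19 (adjusted p = 0.0657) and Xbp1, whose mRNA IRE1α splices, by 0.03 (adjusted p = 0.861).

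Of the ER chaperones and folding factors, 2 of 11 were called (18.2%, against 15.1% of all genes), both higher in ACAT1 KO cells. Hspa5, the chaperone BiP, was at 2602, 2597 and 2689 CPM in LPS WT and 2968, 3125 and 3076 CPM in LPS ACAT1 KO libraries, a fold change of 0.24 (SE 0.063, adjusted p = 0.0404). Manf, a secreted factor that binds BiP, was at 178, 186 and 205 CPM and 216, 222 and 234 CPM, a fold change of 0.26 (SE 0.07, adjusted p = 0.0417). Every ACAT1 KO library of both genes was above every WT library. Of the 11 genes in the group, 9 had a positive difference after LPS, among them Hsp90b1 (GRP94), just outside the threshold at 0.28 (SE 0.0814, adjusted p = 0.0547). The negative ones were Pdia6 and Dnajb9, both on chromosome 12. The ERAD genes Herpud1 and Edem1 differed by -0.31 ± 0.112 and -0.16 ± 0.0747 (log2 ± standard error), not called, with no overlap between the groups of either.

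The calls after LPS changed when single libraries were left out. Leaving out each in turn left 1 to 8 members lower and 0 to 4 higher. It left 1 of each without ACAT1 KO replicate 1, 2 lower and 0 higher without ACAT1 KO replicate 2 or 3, 4 lower and 0 higher without WT replicate 2, 8 lower and 0 higher without WT replicate 1, and 8 lower and 4 higher without WT replicate 3. Nupr1 was called in all 6 of these fits and Hspa5 and Manf in 1 each. With replicate 1 of both genotypes left out, an alternative chosen after seeing the data, 5 members were lower and none higher, and the fold changes of Atf4, Trib3 and Chac1 were -0.37, -0.75 and -0.60. That of Ddit3 was then -0.43 with an adjusted p of 0.0668. Without WT replicate 1 alone the fold changes were -0.74 for Trib3, -0.78 for Chac1, -0.49 for Ddit3, -0.40 for Atf4 and -0.47 for Ern1, each still called. Trib3, Chac1 and Atf4 passed in 3 of the 6 fits, Ern1 in 4, and Ddit3, Ppp1r15b and Shmt2 in 2. Trib3 and Atf4 lost their calls without ACAT1 KO replicate 1, 2 or 3, with fold changes near those of all libraries. These were -1.10, -1.02 and -1.15 for Trib3 and -0.56, -0.56 and -0.61 for Atf4. Ddit3 also lost its call with limma-voom (adjusted p = 0.0515) and in 1 fit of all 12 libraries (adjusted p = 0.0597).

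**Figure D2:**
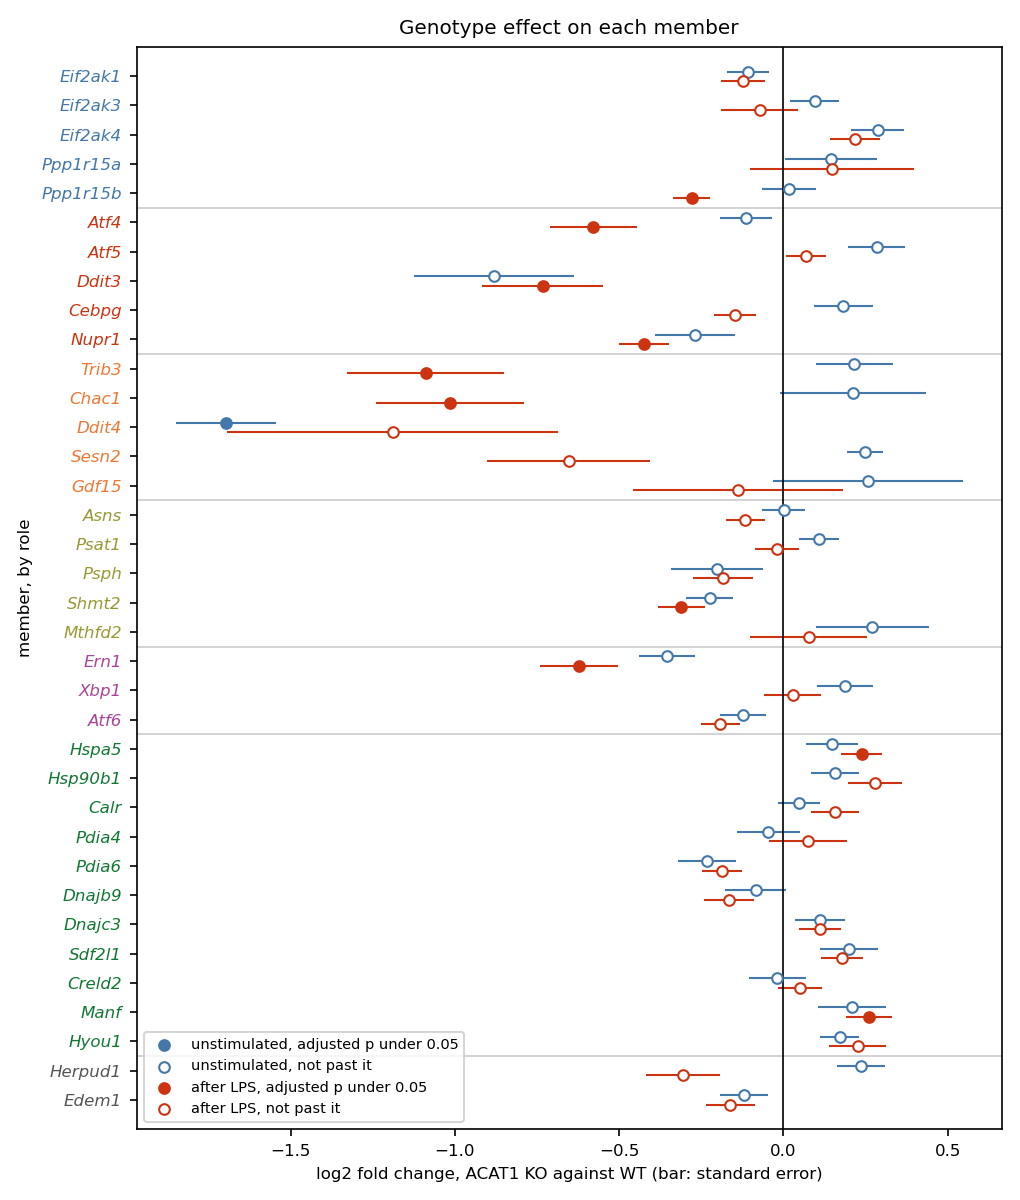
Points are the log2 fold changes of ACAT1 KO against WT for the 36 members (rows, in the same role order, with lines between roles), blue for unstimulated cells and red after LPS, and bars are standard errors. Filled points passed the adjusted threshold, which 1 did in unstimulated cells and 10 after LPS, and most of the red points for transcription factors and stress effectors lie left of 0 while most of those for ER chaperones lie right of it.

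Most members, like most of all genes tested, differed between LPS and unstimulated libraries. LPS and the table of origin of a library cannot be told apart in these effects. In WT cells 24 of 36 were called, 10 higher and 14 lower (66.7%), and in ACAT1 KO cells 28, 8 higher and 20 lower (77.8%). Of all 16535 genes tested 57.4% were called in WT (29.3% higher and 28.0% lower) and 60.7% in ACAT1 KO cells (29.5% higher and 31.2% lower). The median log2 effect of the members was -0.17 in WT and -0.35 in ACAT1 KO cells, against -0.018 and -0.026 for all genes. With 1 library left out these medians were -0.22 to -0.086 in WT, where they were nearest to 0 without unstimulated WT replicate 3 (-0.086) and LPS WT replicate 3 (-0.11), and -0.40 to -0.28 in ACAT1 KO cells. With upper-quartile normalization, which lowered the median of all genes by 0.208 in WT and 0.148 in ACAT1 KO cells, the split was 5 higher and 22 lower in WT and 6 higher and 22 lower in ACAT1 KO cells. The median of the members minus that of all genes was then the same as before to 2 decimals, -0.16 in WT and -0.32 in ACAT1 KO cells.

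The stress effectors fell most. Trib3 went from 134, 152 and 162 CPM to 35.2, 21.7 and 16.8 CPM in WT, a log2 effect of -2.61 (SE 0.222, adjusted p = 9.79e-07), and from 168, 151 and 198 CPM to 11.5, 10.3 and 12.3 CPM in ACAT1 KO cells, an effect of -3.93 (SE 0.237, adjusted p = 4.79e-08). Ddit4 fell by 2.11 ± 0.437 in WT and by 1.61 ± 0.439 in ACAT1 KO cells (log2 ± standard error), the latter from the lower unstimulated level given above. Gdf15 went from 23.5, 10.5 and 15.7 CPM to 8.62, 4.39 and 5.28 CPM in WT and from 18.5, 16.4 and 24.1 CPM to 5.7, 3.33 and 7.3 CPM in ACAT1 KO cells, effects of -1.45 ± 0.348 and -1.85 ± 0.352. Sesn2 fell by 0.90 ± 0.208 in WT and 1.81 ± 0.213 in ACAT1 KO cells. Without LPS WT replicate 1 the effects in WT were -2.96 for Trib3, -3.04 for Ddit4, -1.77 for Gdf15 and -1.29 for Sesn2. Chac1 fell in ACAT1 KO cells, from 14, 20.3 and 19.1 CPM to 4.66, 7.76 and 6.88 CPM, an effect of -1.47 (SE 0.252, adjusted p = 0.000312). In WT cells its libraries overlapped between states, at 11.1, 16.5 and 18.8 CPM and 17.2, 11.8 and 10.7 CPM, and the effect was -0.23 (SE 0.246, adjusted p = 0.463), or -0.46 without LPS WT replicate 1 (adjusted p = 0.153).

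The transcription factors did not share a direction. Nupr1 rose in both genotypes, from 44.2, 53.6 and 57 CPM to 117, 141 and 129 CPM in WT and from 42.9, 37.3 and 47.6 CPM to 90.1, 99 and 95 CPM in ACAT1 KO cells, effects of 1.32 ± 0.111 and 1.15 ± 0.111. Ddit3 fell in both, by 1.61 ± 0.239 and 1.47 ± 0.241, and its 6 LPS libraries, given above, were all below its 6 unstimulated libraries. Its effect in WT was -1.86 without LPS WT replicate 1. Atf5 fell by 0.27 ± 0.0756 and 0.50 ± 0.0757. Atf4 fell in ACAT1 KO cells by 0.57 ± 0.121 and was at -0.09 ± 0.121 in WT cells (adjusted p = 0.546), and Cebpg fell in ACAT1 KO cells by 0.51 ± 0.0791 and was at -0.17 ± 0.079 in WT cells (adjusted p = 0.0925). Without LPS WT replicate 1 the effect on Atf4 in WT cells was -0.28 and was called (adjusted p = 0.0157).

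Genes of eIF2α control were split. Ppp1r15b rose from 174, 171 and 153 CPM to 298, 289 and 269 CPM in WT, an effect of 0.78 (SE 0.0724, adjusted p = 2.03e-06), and by 0.47 ± 0.0721 in ACAT1 KO cells. Eif2ak1 rose by 0.27 and 0.24, a change that upper-quartile normalization reduced to 0.0572 and 0.0881, neither called. Eif2ak4 fell by 0.31 ± 0.0784 in WT and 0.39 ± 0.0781 in ACAT1 KO cells, and Eif2ak3 by 0.40 ± 0.104 in ACAT1 KO cells. The induced subunit Ppp1r15a was at 0.50 ± 0.235 in WT and 0.50 ± 0.234 in ACAT1 KO cells, not called in either (adjusted p = 0.0863 and 0.0863). The amino acid and one-carbon enzymes were lower in 3 of 5 cases in WT (Asns, Psat1 and Psph) and in 5 of 5 in ACAT1 KO cells. Of all genes 28.0% were lower in WT and 31.2% in ACAT1 KO cells. Shmt2 and Mthfd2 had effects of -0.18 ± 0.0748 and -0.48 ± 0.195 in WT cells, just outside the threshold (adjusted p = 0.0566 and 0.0522), and passed with relative log expression or upper-quartile scaling, with DESeq2 and with at least 10 counts in every library. Psat1, the serine synthesis aminotransferase, fell from 521, 541 and 497 CPM to 369, 403 and 347 CPM in WT and from 568, 554 and 549 CPM to 359, 379 and 351 CPM in ACAT1 KO cells.

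The ER genes were split as well. Of the 11 chaperones and folding factors 4 rose and 3 fell in WT and 4 rose and 2 fell in ACAT1 KO cells. Of all genes 29.3% rose and 28.0% fell in WT, and 29.5% rose and 31.2% fell in ACAT1 KO cells. Upper-quartile normalization turned the split of the 11 to 2 and 6 in WT and 3 and 4 in ACAT1 KO cells. Hspa5 rose from 1641, 1420.3 and 1544 CPM to 2602, 2597 and 2689 CPM in WT and from 1771, 1635 and 1664 CPM to 2968, 3125 and 3076 CPM in ACAT1 KO cells, effects of 0.78 ± 0.065 and 0.85 ± 0.0651. Dnajb9, an ER co-chaperone and target of XBP1, rose by 0.72 ± 0.088 and 0.63 ± 0.0878, and Edem1, a lectin of ERAD, by 0.45 ± 0.0747 and 0.40 ± 0.0746. Calr and Hyou1 rose in both genotypes by 0.25 to 0.35, while Sdf2l1 fell by 0.51 ± 0.0794 and 0.55 ± 0.0793 and Pdia4 by 0.41 ± 0.116 and 0.31 ± 0.116. In ACAT1 KO cells Pdia4 passed in 8 of the 12 fits that left out 1 library and was at -0.17 without LPS ACAT1 KO replicate 1 (adjusted p = 0.135). Hsp90b1 fell in WT by 0.28 ± 0.0747. Pdia6, Dnajc3, Creld2 and Manf were not called in either genotype, with effects from -0.045 to 0.12. Of the sensors, Ern1 fell by 0.46 ± 0.113 and 0.74 ± 0.113, while Xbp1 and Atf6 rose in WT by 0.26 and 0.21, of which the first was 0.0468 and the second -0.00329 under upper-quartile normalization, neither called. With 1 of 12 libraries left out Xbp1 passed in 8 fits and Atf6 in 10. Calr and Hyou1 in WT cells and Hyou1 in ACAT1 KO cells also lost their calls under upper-quartile normalization. Under it Hspa5, Dnajb9, Edem1, Nupr1 and Ppp1r15b stayed higher in both genotypes.

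**Figure D3:**
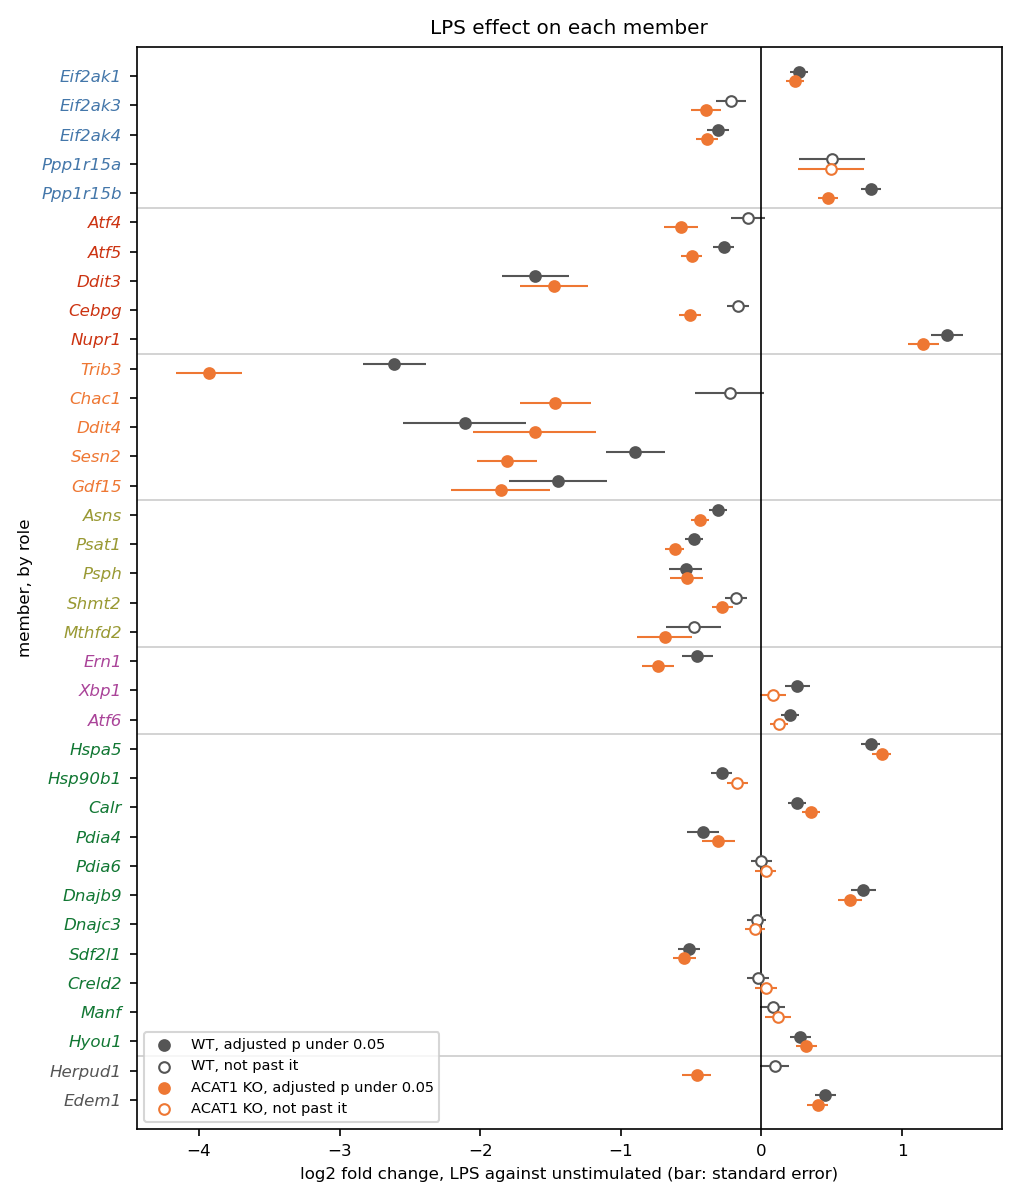
Points are the log2 fold changes of LPS against unstimulated cells for the 36 members (rows, by role), grey for WT and orange for ACAT1 KO cells, with standard errors as bars and filled points for genes past the adjusted threshold. The largest decrease is that of Trib3, -2.61 in WT and -3.93 in ACAT1 KO cells, and the largest increase that of Nupr1, 1.32 and 1.15.

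Whether LPS acted differently in the genotypes was tested by the interaction, the LPS effect in ACAT1 KO minus that in WT cells. No member passed in edgeR, where 0.187% of all 16535 genes did. By unadjusted p under 0.05, 7 of 36 members had a lower effect in ACAT1 KO cells and 0 a higher one, where 5.64% and 3.28% of all genes had. These 7 were Trib3, Chac1, Sesn2, Herpud1, Atf4, Cebpg and Ppp1r15b. limma-voom called 0 members and DESeq2 called 4, all lower, namely Trib3, Chac1, Herpud1 and Sesn2, within 334 genes in all. The median interaction over the members was -0.087, against -0.038 over all genes, and over the 5 stress effectors it was -0.91.

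Trib3 had the smallest p, with a difference between its LPS effects of -1.32 (SE 0.3, adjusted p = 0.115). Chac1 had one of -1.24 (SE 0.35, adjusted p = 0.214), Herpud1 of -0.55 (SE 0.145, adjusted p = 0.171) and Sesn2 of -0.91 (SE 0.293, adjusted p = 0.298). Herpud1, an ER membrane protein of ERAD, was at 97.8, 95.4 and 111 CPM in unstimulated WT and 119, 96.4 and 109 CPM in LPS WT libraries, and went from 122, 117 and 117 CPM to 73.1, 92 and 93.6 CPM in ACAT1 KO cells, a called effect of -0.46 (SE 0.102, adjusted p = 0.002). Without LPS WT replicate 1 the differences were -0.97 for Trib3 (adjusted p = 0.0833), -1.01 for Chac1, -0.53 for Sesn2 and -0.29 for Atf4. Among the stress effectors Ddit4 went the other way, at 0.50 with all libraries (adjusted p = 0.918). Without LPS WT replicate 1 it was at 1.43 (adjusted p = 0.0833). Over the 11 ER chaperones and folding factors the interactions ran from -0.094 (Dnajb9) to 0.11 (Hsp90b1), with standard errors from 0.0896 (Calr) to 0.164 (Pdia4).

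**Figure D4:**
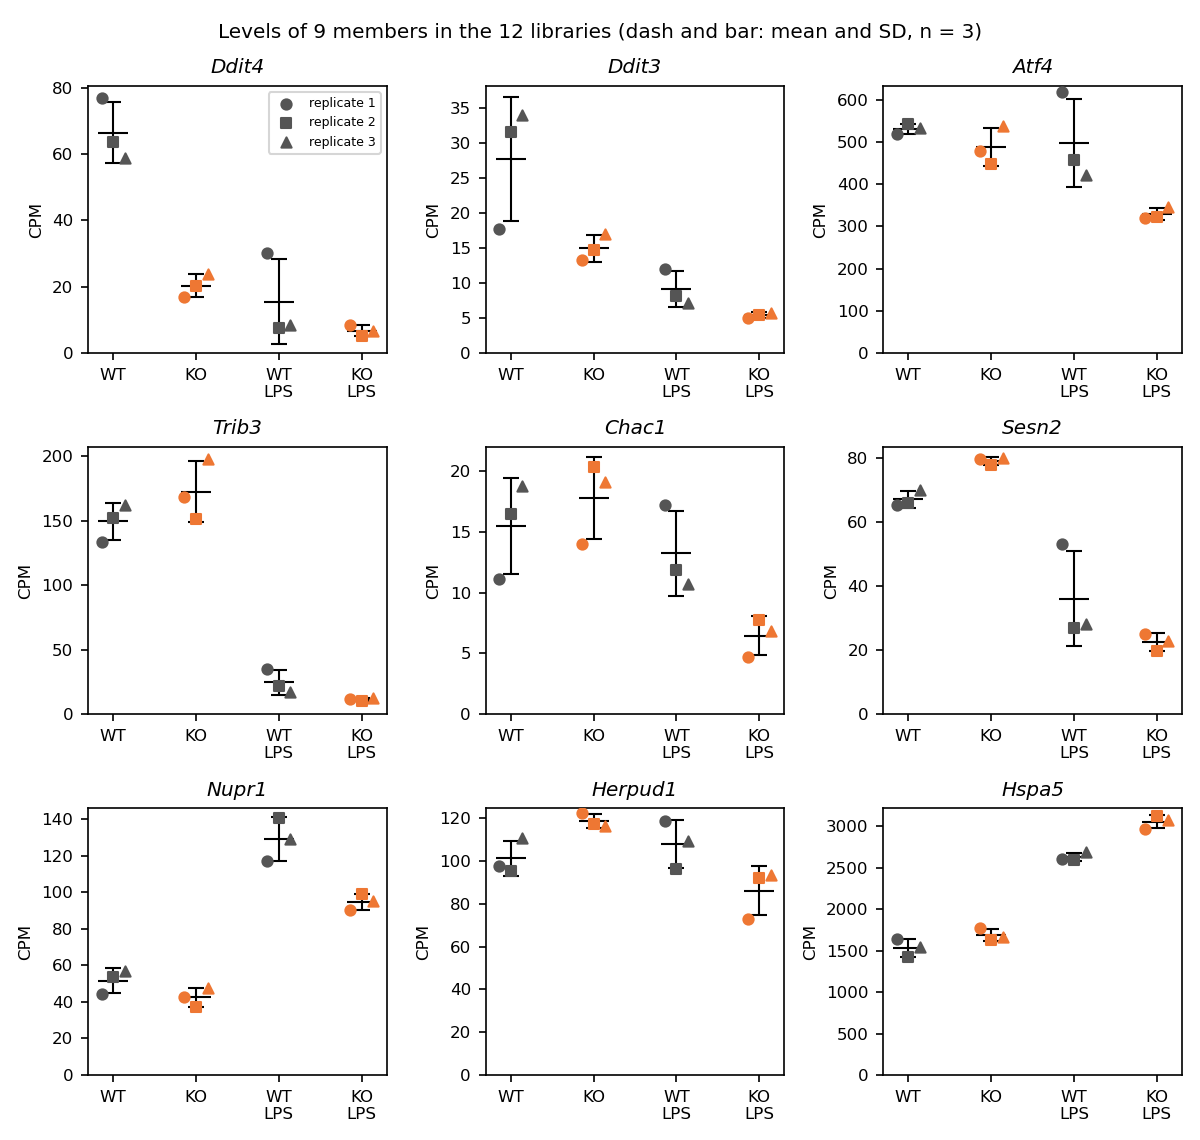
Points are CPM of 9 members in each library (circle, square and triangle for replicates 1, 2 and 3), grey for WT and orange for ACAT1 KO cells, unstimulated on the left and after LPS on the right, with dashes for means and bars for SD (n = 3). Ddit4 is low in unstimulated ACAT1 KO cells already, and Sesn2 and Herpud1 are higher in unstimulated and lower in LPS ACAT1 KO libraries than in WT. LPS WT replicate 1 is the highest LPS library for Ddit4, Ddit3, Atf4, Trib3, Chac1, Sesn2 and Herpud1.

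Read by promoter motif, the 5 members with a CARE in their window were all lower in ACAT1 KO cells after LPS, by log2 differences from -1.09 to -0.12 with a median of -0.42. Of these Trib3, Chac1 and Nupr1 were called. The 6 members with an ERSE ranged from -0.19 (Pdia6, on chromosome 12) to 0.28 (Hsp90b1), with a median of 0.13, 5 of them positive and 1, Hspa5, called. The 21 members with a window and none of these motifs had a median of -0.14 with 4 called, all lower. The 4 called genes with a window and no match were Atf4, Ddit3, Ern1 and Shmt2. The 4 members without a window had a median of 0.017, with Manf called higher and Ppp1r15b called lower. In unstimulated cells the medians were 0.21 for CARE, 0.079 for ERSE and 0.095 for neither, with no CARE or ERSE gene called. These are descriptions of a few genes each and carry no test.

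The wider machinery of both responses was read from a further list of 112 genes, of which 107 were tested in unstimulated cells and 106 after LPS. In unstimulated ACAT1 KO cells 1 was called, Mthfd1, the cytosolic one-carbon enzyme on chromosome 12, at -0.43 (SE 0.0578, adjusted p = 0.0333), a call that 1 of the 6 fits leaving out a library kept (adjusted p from 0.0866 to 0.135 in the others). After LPS 18 of 106 were called between genotypes, 6 higher and 12 lower in ACAT1 KO cells (17.0%, against 15.1% of all genes). Those with the smallest adjusted p were Eif2s2 (0.34, eIF2β), Mthfd1 (-0.46), Edem3 (-0.32, ERAD), Wars (-0.32, tryptophanyl-tRNA synthetase) and Pdia3 (0.41, an ER disulfide isomerase). All but Edem3 lie on chromosome 12 or distal chromosome 2 and have the sign of their segment. Of 8 amino acid transporters 3 were lower and 1 higher, and of 12 aminoacyl-tRNA synthetases 3 were lower and 0 higher. Of all genes 9.12% were lower and 5.93% higher. The higher transporter, named after its values were seen, was Slc7a11, the cystine carrier that ATF4 and NRF2 induce, at 317, 207 and 239.9 CPM in LPS WT and 606, 349 and 479.8 CPM in LPS ACAT1 KO libraries, a fold change of 0.93 (SE 0.213, adjusted p = 0.0257) that passed in 2 of the 6 fits leaving out a library.

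LPS lowered 9 of 12 aminoacyl-tRNA synthetases in WT and 10 of 12 in ACAT1 KO cells and raised none, with medians of -0.32 and -0.40. Beside this and the counts that follow, 28.0% of all genes fell and 29.3% rose in WT. In ACAT1 KO cells 31.2% fell and 29.5% rose. Of 8 amino acid transporters 5 fell and 1 rose in WT, and 6 fell and 2 rose in ACAT1 KO cells. Slc1a4, a neutral amino acid transporter, had effects of -2.03 ± 0.13 and -2.67 ± 0.134, and Pck2, mitochondrial PEP carboxykinase, -1.22 ± 0.0768 and -1.45 ± 0.0772. Of 12 genes of eIF2, its exchange factor and related control 8 rose and 1 fell in each genotype. Eif2ak2, the double-stranded RNA kinase PKR, was at 2.11 ± 0.109 in WT and 2.67 ± 0.111 in ACAT1 KO cells. Of 14 other ERAD genes 7 rose in WT and 8 in ACAT1 KO cells and none fell, among them Syvn1, the ubiquitin ligase HRD1 (1.48 in WT), and Nploc4 (1.16 and 1.16). Upper-quartile normalization left 4 genes of eIF2 control higher in WT and 6 in ACAT1 KO cells. It turned the ERAD genes into 6 higher and 4 lower in each genotype, with a median of -0.015 in WT cells, while no synthetase was higher under it either. In all, 59 of 106 genes of the wider list were called in WT (55.7%, against 57.4% of all genes) and 66 in ACAT1 KO cells (62.3%, against 60.7%). None was called in the interaction by edgeR, where 2 were higher and 12 lower by unadjusted p under 0.05, as were 3.28% and 5.64% of all genes.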

How the data were processed

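RNA from J774A.1 cells was made into directional libraries (NEBNext Ultra II) and sequenced. Per the labels and the study's methods, the authors trimmed reads with Trimmomatic 0.33, aligned them with HISAT2 to GRCm38, quantified expression with StringTie and compared it with Ballgown. The deposited values are whole read counts per gene in 1 table per state, and the step that made them, and whether it used strand, is not given in the sources used here. Each table listed genes with at least 4 counts in 5 of 6 libraries. Also deposited, and unused, were 12 log2 columns and the authors' fold changes and p-values. After 59 and 57 repeated entries were removed, the tables held 17544 and 17874 genes.

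From these counts, genes were filtered with filterByExpr, scaled by TMM and tested with edgeR's quasi-likelihood test (edgeR 4.0.16, R 4.3.3), with Benjamini-Hochberg adjustment over all genes tested and a threshold of 0.05. Genotype effects were fitted within each table (6 libraries), and LPS effects and the interaction in 1 fit of 12 libraries over genes in both tables, in which LPS and the table of origin cannot be told apart. Both LPS effects share libraries with the interaction. Alternatives used DESeq2 1.42.0, limma-voom (limma 3.58.1), other scalings and filters, blocks, and libraries left out. Code was tested on simulated data. The members and lists were chosen with earlier results of these data known. All 37 members could be named. Values in every library were given for members called in a genotype contrast, else for those with the smallest p, and for those with the largest LPS effects, plus other members needed to describe a role. Of the wider list, up to 5 genes per comparison were named. Exons of 14 members overlapped another gene, and no single overlapping gene covered more than 11.4% of a member's exon bases. Replicate pairs differed beyond counting noise (chi-square per degree of freedom 33.5 to 280.1 over 12 pairs). The p-values measure the spread between libraries of a group, in which line, culture and library preparation cannot be told apart.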

Additional observations from a re-analysis of the deposited data

Results flagged for a closer look

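Sesn2, Herpud1 and Cebpg stood on opposite sides in the 2 states. In all 3, every unstimulated ACAT1 KO library was above every unstimulated WT library, and every LPS ACAT1 KO library below every LPS WT library. How many of all genes do so was not counted. The groups did not overlap for 25.8% of all genes in unstimulated cells and for 37.6% after LPS, either direction. The closest unstimulated libraries of Cebpg were at 83.5 CPM in WT and 83.8 CPM in ACAT1 KO. Within the antisense-rich unstimulated libraries the log2 differences were 0.26 for Sesn2, 0.30 for Herpud1 and 0.30 for Cebpg. Within the other unstimulated libraries they were 0.19, 0.11 and 0.015, so Cebpg hardly differed there. The LPS effect in ACAT1 KO minus that in WT cells was -0.91 for Sesn2 (edgeR adjusted p = 0.298), -0.55 for Herpud1 (adjusted p = 0.171) and -0.34 for Cebpg (adjusted p = 0.309), so none passed the test of the difference itself. Cebpg was at 66.2, 76.2 and 83.5 CPM in unstimulated WT, 83.8, 86.2 and 84.8 CPM in unstimulated ACAT1 KO, 72.8, 65.2 and 63.5 CPM in LPS WT and 60.4, 59.6 and 59.3 CPM in LPS ACAT1 KO libraries. Levels of the other 2 genes are given above.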

How the results depend on the processing

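The lowest count of a member in any library was 372 (Gdf15). In unstimulated cells DESeq2 called 5 members higher and 4 lower, and 1 fit of all 12 libraries 1 and 2. Wider-list calls, 1 in the main analysis, were 2 with upper-quartile normalization, 15 with DESeq2, 3 with at least 10 counts in every library, 11 with 12 libraries, 5 with a term for the antisense-rich libraries and 0 without chromosome 12 and distal chromosome 2. In that last fit the genes of these segments were not tested, among them Mthfd1, the 1 gene called in the main analysis. The 314 genes called in all became 1721 (DESeq2), 475 (at least 10 counts), 1353 (12 libraries), 664 (that term) and 74 (without those segments). Without replicate 1 of both genotypes, chosen after seeing the data, LPS genotype calls were 0 members higher, 5 lower, 11 wider-list genes and 1410 genes in all against 2481. Without the segments, whose own genes were then not tested, 11 wider-list genes were called. Upper-quartile normalization gave 5 members higher and 22 lower for LPS in WT cells, moved the members' median to -0.38 in WT and -0.50 in ACAT1 KO cells, and reversed Atf6 in WT to -0.0033, since it lowers every LPS effect. Without both replicates 1 these medians were -0.24 and -0.28. For the interaction DESeq2 called 4 members lower, 5 wider-list genes and 334 genes in all, against 31 in the main analysis, 11 by limma-voom, 69 with the term and 5 without both replicates 1. The cause of these shifts was not tested.

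With each library left out in turn, unstimulated calls were 7 to 522 genes (7 without WT replicate 2), 0 to 0 members higher, 0 to 1 lower and 0 to 3 wider-list genes, with a member median of 0.039 to 0.081. After LPS they were 867 to 2245 genes, 0 to 4 members higher, 1 to 8 lower and 5 to 21 wider-list genes, with a median of -0.15 to -0.087. LPS effects in WT gave 8636 to 9676 genes, 8 to 10 higher, 14 to 16 lower, 52 to 62 wider-list genes and a median of -0.22 to -0.086. In ACAT1 KO cells they gave 8978 to 10224 genes, 8 to 9 higher, 19 to 21 lower, 60 to 68 wider-list genes and a median of -0.40 to -0.28. The interaction gave 2 to 41 genes, 0 to 0 members higher, 0 to 1 lower (Trib3, without LPS WT replicate 3), 0 to 0 wider-list genes and a median of -0.10 to -0.063.

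Same-numbered libraries of a genotype were more alike across states than other lines over both sets of genes examined. The labels do not say that they are pairs, and the main fits did not pair them. Deviations of same-numbered libraries across states correlated at 0.091 to 0.31 over 16535 genes and those of other lines at -0.21 to 0.037, and 6 of 6 libraries correlated best with their own number, a hint from the data and not the design. Over 11961 genes of at least 1 CPM the ranges were 0.14 to 0.45 and -0.34 to 0.098. Across genotypes same-numbered libraries correlated at -0.34 to 0.65. A replicate block left 151 genes called in unstimulated cells, and after LPS Chac1, Ddit3 and Hspa5 lost their calls under it and Hsp90b1 gained one. In unstimulated cells Mthfd1 lost its call (adjusted p = 0.0583). The block by line called 11 members higher and 17 lower for LPS in WT (10248 genes in all), with Shmt2, Mthfd2, Eif2ak3 and Ppp1r15a gained, and 9 and 21 in ACAT1 KO cells (10718 genes in all), with Ppp1r15a and Hsp90b1 gained. It gave 288 genes in the interaction, 0 members and 2 wider-list genes (Slc7a11 at 1.21 and Eif2ak2 at 0.56).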
